A study of Mus musculus with 12 samples.

Results

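The 10 genes described here are known for eosinophils, basophils and mast cells, and were taken by symbol from a table of 23309 genes measured by RNA-seq in 12 libraries of mouse myeloid cells. All 10 were listed, 5 of them eosinophil genes (Prg2, Prg3, Epx, Ear1 and Ear2) and 5 basophil or mast cell genes (Cpa3, Mcpt8, Prss34, Fcer1a and Hdc). The cells were bone marrow progenitors positive for CD117, the stem cell factor receptor, immortalized with a retrovirus that expresses HoxB8 fused to the estrogen receptor and grown in IL-3. With estradiol (E2) present the fusion protein holds them as progenitors, and they differentiate once E2 is withdrawn. Libraries came from wild-type (WT) cells and from cells of HMGN1-OE mice, which carry a transgene for human HMGN1, a nucleosome-binding protein, at 0, 36, and 96 h after withdrawal, with 2 libraries in each of 6 groups. Both genotypes share the retrovirus and the IL-3 culture, so every group is a culture under IL-3 and none is a sorted cell type. The study calls the 2 libraries of a group biological duplicates, and how many clones or mice stand behind them is not given in the sources used here.

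Eosinophils, basophils and mast cells are granulocytes of allergy and of the defense against parasites. They branch from progenitors that can also form neutrophils and monocytes. GATA1 and GATA2, working with C/EBP factors, direct these fates, and the order in which they act helps to set which one a progenitor takes. IL-3 feeds basophils and mast cells, IL-5 feeds eosinophils, and stem cell factor acts on mast cells through Kit. The products of the genes described here are largely the cargo of the granules: toxic cationic proteins, a peroxidase and ribonucleases in eosinophils, and proteases and histamine in basophils and mast cells.

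The deposited values were FPKM, a level per length of transcript, which the authors scaled to ERCC RNAs added in equal amount to RNA from a fixed number of cells. Differences were computed as log2(FPKM + 1), HMGN1-OE minus WT or later minus earlier time, and tested with limma over the 11516 genes that reached 1 FPKM in at least 2 libraries, with Benjamini-Hochberg adjustment over those genes. Genes with an adjusted p under 0.05 are named as called. limma took the spread of each gene from a trend over all genes at its level, so the printed standard errors (SE) do not contain the gap between the 2 libraries of that gene. With 2 libraries against 2, an exact permutation test of 1 gene cannot go below p = 0.333. The median log2 level of the tested genes ran from 3.91 to 4.97 over the libraries at 0 and 36 h and from 2.02 to 3.06 at 96 h. Within a group the libraries are named first and second, after the digit in their column names. Mouse Hmgn1 overlapped between the genotypes at every time, and the human transgene is not in the table, so these values do not check the genotype.

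The names of the gene groups were checked against other markers. Of 10 further eosinophil genes, 7 were listed and 5 tested, and the receptors Ccr3 and Il5ra, for eotaxin and IL-5, stayed under 1 FPKM in all 12 libraries. Of 23 further basophil or mast cell genes, 14 were tested and 9 stayed under 1 FPKM in every library, among them Cma1, Mcpt4, Tpsab1 and Mrgprb2, which mark mature connective tissue mast cells. Tpsb2, another tryptase of these cells, was at 4.20 and 19.6 FPKM in WT and 4.45 and 13.9 FPKM in HMGN1-OE cells at 96 h, and Ms4a2, Il1rl1 and Cd200r3 were also among the genes tested. Of 11 red cell and megakaryocyte genes 4 were under 1 FPKM throughout, among them Klf1 and Epor, but Car2 was at 156 to 1309 FPKM at 0 and 36 h, and Hbb-b1 reached 34.5, Pf4 24.9 and Itga2b 17.6 FPKM. Of 8 lymphoid and dendritic genes 6 were under 1 FPKM throughout, among them Cd3e and Cd209a, and Nkg7 reached 75.9 FPKM. The 10 genes are therefore described as granule and receptor genes and not as counts of cells. In bulk RNA, fewer cells of a type and less RNA per cell cannot be told apart.

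The 250 bases before the start are shown for 6 of the genes because these 6 carry the contrasts below: Ear1 and Ear2 differed little from each other over the 12 libraries, Prg3 and Epx rose with them, and Cpa3 and Prss34 are proteases of basophils and mast cells, of which Prss34 was called between genotypes at 0 h. The sequences are those of RefSeq on GRCm38.p6, in the direction of the gene, and 9 of the 10 genes had an entry. The windows are chr14:43819640-43819889 on the minus strand, chr14:44102404-44102653 on the plus strand, chr2:84987965-84988214 on the plus strand, chr11:87875537-87875786 on the minus strand, chr3:20242182-20242431 on the minus strand, and chr17:25298144-25298393 on the plus strand. Capitals mark letters of 2 motifs searched on both strands, the C/EBP motif spelled TTGCNNAA and the GATA motif in any of its usual spellings, which are AGATAA, the same with a final G as in AGATAG, and the forms that open with T, namely TGATAA and likewise TGATAG. The motifs did not overlap each other in these 6 windows.

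Ear1: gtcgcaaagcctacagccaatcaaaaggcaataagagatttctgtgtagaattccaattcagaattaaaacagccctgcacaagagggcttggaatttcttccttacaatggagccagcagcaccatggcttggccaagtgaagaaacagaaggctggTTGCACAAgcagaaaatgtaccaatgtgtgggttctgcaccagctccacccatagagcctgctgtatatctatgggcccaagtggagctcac
Ear2: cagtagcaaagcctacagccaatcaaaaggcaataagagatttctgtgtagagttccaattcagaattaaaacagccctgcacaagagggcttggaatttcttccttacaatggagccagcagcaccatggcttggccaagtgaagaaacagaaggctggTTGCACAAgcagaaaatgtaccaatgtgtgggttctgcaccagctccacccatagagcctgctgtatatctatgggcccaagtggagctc
Prg3: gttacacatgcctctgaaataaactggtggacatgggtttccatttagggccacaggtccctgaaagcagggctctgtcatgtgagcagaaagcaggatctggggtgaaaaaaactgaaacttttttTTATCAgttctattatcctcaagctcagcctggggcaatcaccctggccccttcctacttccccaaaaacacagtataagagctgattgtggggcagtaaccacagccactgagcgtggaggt
Epx: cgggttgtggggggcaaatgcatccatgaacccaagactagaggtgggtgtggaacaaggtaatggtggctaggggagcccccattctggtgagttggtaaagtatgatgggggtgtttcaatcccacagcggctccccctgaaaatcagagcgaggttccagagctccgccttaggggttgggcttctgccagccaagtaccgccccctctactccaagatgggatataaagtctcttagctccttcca
Cpa3: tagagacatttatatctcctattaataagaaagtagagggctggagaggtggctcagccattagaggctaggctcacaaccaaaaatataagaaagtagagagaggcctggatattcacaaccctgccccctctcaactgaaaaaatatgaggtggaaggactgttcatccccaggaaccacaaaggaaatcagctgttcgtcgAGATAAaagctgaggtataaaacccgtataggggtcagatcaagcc
Prss34: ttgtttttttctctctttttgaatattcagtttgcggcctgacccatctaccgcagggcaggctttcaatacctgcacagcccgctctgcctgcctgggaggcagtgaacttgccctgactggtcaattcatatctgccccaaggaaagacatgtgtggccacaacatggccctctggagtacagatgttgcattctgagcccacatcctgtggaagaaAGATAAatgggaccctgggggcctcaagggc

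Ear1 and Ear2 were identical at 246 of 252 aligned positions of these windows (97.6%), and each held the C/EBP letters, 92 and 90 bases before the start. Prg3 held the GATA letters on the opposite strand 123 bases before the start, Cpa3 held them 46 bases and Prss34 31 bases before it, and Epx held neither motif. Among 32851 RefSeq promoter windows of the same length, 26.5% held the GATA letters and 9.56% the C/EBP letters. A match is a description of letters and not a bound site. The genes lie apart on the genome, with Prg2, Prg3 and Hdc on chromosome 2, Ear1, Ear2 and Mcpt8 on chromosome 14, Epx on 11, Cpa3 on 3, Prss34 on 17 and Fcer1a on 1 in GENCODE vM21.

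In WT cells all 5 eosinophil genes rose from 0 to 96 h, by 4.26 to 7.77 on the log2 scale, while 77.2% of tested genes were called lower over the same interval and 4.31% were called higher. That split was 496 genes higher and 8893 lower, and became 4202 higher and 3889 lower when libraries were centred on their medians, with the 5 genes still called higher. Prg2 encodes major basic protein, the toxic core of the eosinophil granule. Its level was 9.88 and 2.54 FPKM at 0 h, 49.2 and 5.80 FPKM at 36 h, and 1970.3 and 933 FPKM at 96 h. The 96 h libraries stood far above the other 4 WT libraries, and above the 0 h ones as for 4.84% of tested genes, and the mean level was 234-fold that at 0 h. The log2 rise of Prg2 was 7.77 ± 0.54 (SE, adjusted p = 7.21e-44, limma), the largest of the 11516 tested genes in this comparison.

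Epx, the eosinophil peroxidase, was at 1.64 and 0.409 FPKM at 0 h, 3.13 and 1.53 FPKM at 36 h, and 153 and 49.1 FPKM at 96 h in WT cells. Prg3, which encodes a second major basic protein, was at 0.709 and 0.432 FPKM, then 10.7 and 0.871 FPKM, then 96.4 and 36.4 FPKM. Both were near or under 2 FPKM in the 0 h libraries and well above that only at 96 h, apart from the first 36 h library. By limma, Epx rose by 5.51 ± 0.45 (SE, adjusted p = 6.35e-32) and Prg3 by 5.27 ± 0.43 (SE, adjusted p = 1.75e-31) on the log2 scale. Prg3 was under 1 FPKM in every 0 h library and passed the filter through later libraries alone, so a difference over time was a condition of its being tested in both genotypes.

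Ear1 and Ear2 encode eosinophil-associated ribonucleases of the RNase A family. In WT cells Ear1 was at 0.353 and 0.415 FPKM at 0 h, 0.583 and 0.194 FPKM at 36 h, and 35.6 and 18.2 FPKM at 96 h. Ear2 was at 0.672 and 0.769 FPKM, then 1.43 and 0.321 FPKM, then 56.9 and 36.5 FPKM. Neither had a 36 h group apart from its 0 h group, and both were high at 96 h alone. Ear1 rose by 4.26 ± 0.38 (SE, adjusted p = 5.17e-27) and Ear2 by 4.76 ± 0.41 (SE, adjusted p = 1.03e-28) from 0 to 96 h by limma. The longest transcripts of Ear1 and Ear2 were 96.1% identical, and 57.4% of the 50-base windows of Ear1 and 41.5% of those of Ear2 also occur in other genes (each other, Ear10 and Ear pseudogenes), so reads may have been split among them and their separate levels are uncertain. Ear1 passed the 1 FPKM filter through its 96 h libraries alone and Ear2 through these and the first WT library at 36 h, so a difference over time was a condition of their being tested. All 10 genes passed the filter, 4 of them (Prg3, Ear1, Ear2 and Fcer1a) with every 0 h library under 1 FPKM, and counts over them are descriptions.

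**Figure D1:**
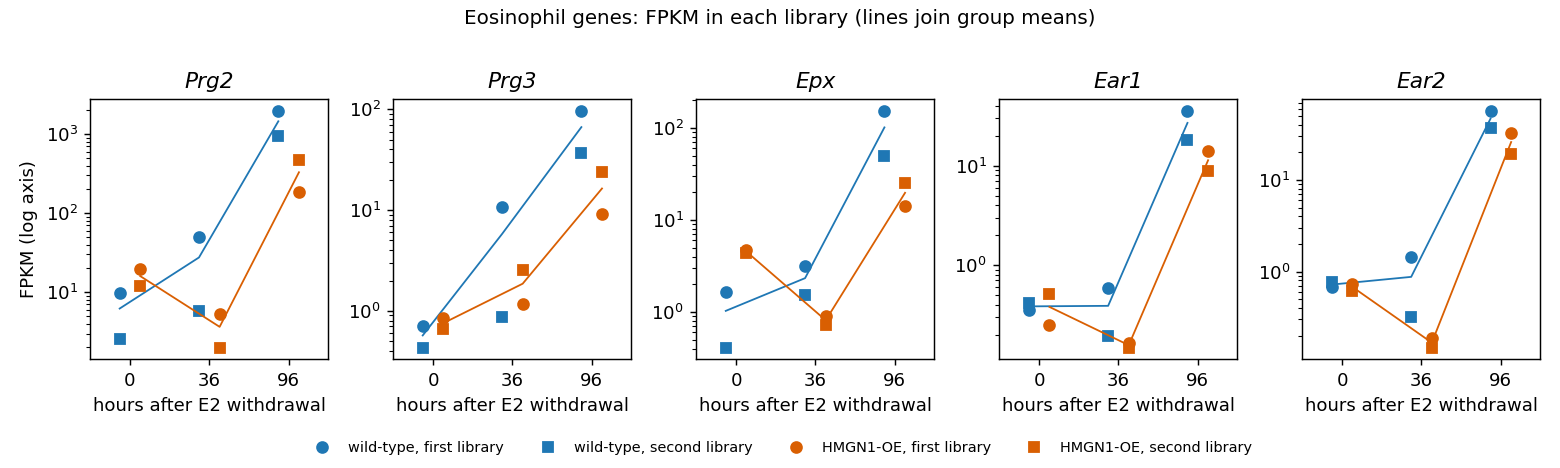
FPKM of Prg2, Prg3, Epx, Ear1 and Ear2 (log axis) at 0, 36, and 96 h after E2 withdrawal; circles and squares are the first and second library, blue is WT, orange is HMGN1-OE, and lines join group means. At 96 h both WT points lie above both HMGN1-OE points in each panel, for Prg2 at 1970.3 and 933 against 186 and 472 FPKM.

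The same 5 genes also rose in HMGN1-OE cells, by 1.85 to 4.17 on the log2 scale, where 5.08% of tested genes were called higher and 62.4% lower, a split of 585 and 7188 genes that became 3560 and 3739 with centred libraries. Prg2 was at 19.8 and 12.1 FPKM at 0 h, 5.30 and 1.99 FPKM at 36 h, and 186 and 472 FPKM at 96 h. Both libraries at 36 h lay below both at 0 h, as for 9.47% of tested genes, before the level was high at 96 h. Epx had the same sequence, with 4.72 and 4.33 FPKM, then 0.902 and 0.720 FPKM, then 14.1 and 25.3 FPKM. From 0 to 36 h Prg2 fell by 1.93 ± 0.54 (SE, adjusted p = 0.0221) and Epx fell by 1.61 ± 0.45 (SE, adjusted p = 0.0218) in HMGN1-OE cells by limma, where 1.12% of tested genes were called lower and 1.8% in either direction. With 1 library left out the call of Prg2 was kept in 6 of 12 fits and that of Epx in 7 of 12, and over all 22 alternatives each was kept in 11. The other eosinophil genes did not pass the test over that interval in HMGN1-OE cells. By 96 h Prg2 had risen by 4.17 ± 0.54 (SE, adjusted p = 3.99e-13) and Epx by 1.85 ± 0.45 (SE, adjusted p = 0.000174) over 0 h.

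Prg3 in HMGN1-OE cells was at 0.852 and 0.658 FPKM at 0 h, 1.18 and 2.54 FPKM at 36 h, and 9.15 and 23.6 FPKM at 96 h. Ear1 was at 0.249 and 0.509 FPKM, then 0.165 and 0.148 FPKM, then 13.9 and 8.73 FPKM, and Ear2 was at 0.739 and 0.617 FPKM, then 0.187 and 0.148 FPKM, then 32.8 and 19.1 FPKM. All 3 had their 96 h libraries above every earlier one, and 7.95% of tested genes had them above the 0 h ones. Their log2 rises from 0 to 96 h were 3.17 for Prg3, 3.13 for Ear1 and 3.96 for Ear2, with adjusted p-values of 8.05e-12, 6.71e-15 and 4.98e-20 by limma, under the same condition of the filter.

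At 96 h, Epx, Prg2 and Prg3 were called lower in HMGN1-OE than in WT cells, which makes 3 of the 10 genes, where 0.347% of tested genes were called lower and 0.669% were called in either direction. Epx differed by -2.14 ± 0.45 (SE, adjusted p = 0.000449), Prg2 by -2.19 ± 0.54 (SE, adjusted p = 0.00848), and Prg3 by -1.94 ± 0.43 (SE, adjusted p = 0.00158) on the log2 scale by limma. Mean FPKM in WT cells was 5.14-fold that in HMGN1-OE cells for Epx, 4.41-fold for Prg2, and 4.06-fold for Prg3. For all 5 eosinophil genes both WT libraries were above both HMGN1-OE libraries, an order that 2.97% of tested genes had. Ear1 at -1.14 ± 0.38 (SE, adjusted p = 0.295) and Ear2 at -0.84 ± 0.41 (SE, adjusted p = 0.859) were not called. The lower WT library was 1.94 times the higher HMGN1-OE library for Epx, 1.98 times for Prg2, 1.55 times for Prg3, 1.31 times for Ear1 and 1.11 times for Ear2.

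The median log2 difference of all tested genes between genotypes at 96 h was 0.36, while the eosinophil genes were lower in HMGN1-OE cells. The library medians overlapped, at 2.99 and 2.02 in WT and 2.75 and 3.06 in HMGN1-OE cells. Within the WT group 96.4% of tested genes were higher in the first library, and the median gene was 0.89 higher there on the log2 scale. With each library centred on its median the difference of Epx was -2.54, that of Prg2 -2.59 and that of Prg3 -2.34, each larger, but none was called then (adjusted p = 0.218, 0.246 and 0.228 by limma). Over the settings tried, adjusted p-values ran from 1.02e-06 to 0.805 for Epx, from 0.000149 to 0.932 for Prg2 and from 1.49e-05 to 0.834 for Prg3. Without the first WT library at 96 h the differences were -1.33, -1.65 and -1.25, and without the first HMGN1-OE library they were -1.74, -1.52 and -1.30, with none called in either case. With 1 library left out the calls were kept in 10 of 12 fits for Epx, 8 of 12 for Prg2 and 10 of 12 for Prg3, and over all 22 alternatives in 15, 12 and 12.

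**Figure D2:**
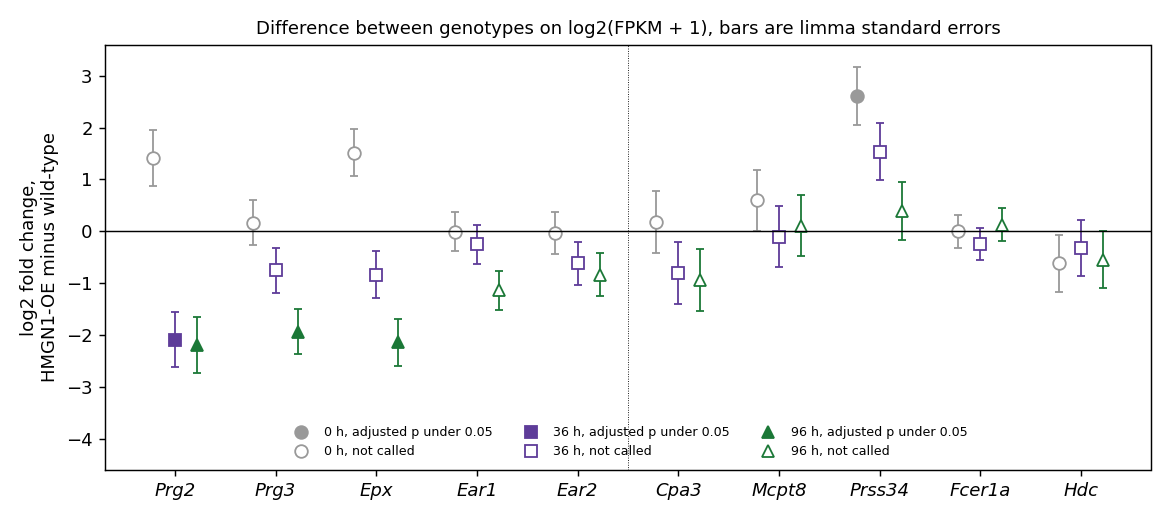
Log2 fold change, HMGN1-OE minus WT, of the 10 genes at 0, 36, and 96 h (gray circles, purple squares, green triangles), on log2(FPKM + 1); bars are limma SE, filled symbols have adjusted p under 0.05, and a dotted line parts the eosinophil genes on the left from the basophil and mast cell genes. The 5 eosinophil genes lie below 0 at 96 h, from -0.84 to -2.19, and Prss34 lies highest at 0 h with 2.60.

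Shares and ratios within a library are free of a factor common to all its genes, but not of the loess, whose correction can differ between levels. The 5 eosinophil genes together made 2313 and 1074 FPKM in the WT libraries at 96 h and 256 and 548 FPKM in the HMGN1-OE libraries. That was 0.514 and 0.469% of all FPKM in WT cells and 0.0632 and 0.0981% in HMGN1-OE cells. Set against the neutrophil secondary granule genes Ltf, Camp, Ngp and Lcn2, which encode proteins made late in the neutrophil lineage, the ratio was 0.0887 and 0.0994 in WT cells and 0.0178 and 0.0353 in HMGN1-OE cells. The groups did not overlap by either measure. Prg2 made most of each eosinophil sum, with 1970.3 and 933 FPKM in the WT libraries and 186 and 472 FPKM in the HMGN1-OE libraries. These 4 neutrophil genes themselves overlapped, with 26079 and 10803 FPKM in WT and 14388 and 15534 FPKM in HMGN1-OE cells. Of the 15 neutrophil genes tested, 4 had both HMGN1-OE libraries below both WT libraries at 96 h, as 2.97% of all tested genes did. Another 4 had them above, for which the share of all tested genes is not given here. The rest overlapped, among them S100a8 and Csf3r, and the list median was 0.001. The 4 that were below are named after their values were seen. Retnlg was at 139 and 151 FPKM in WT and 45.5 and 45.1 FPKM in HMGN1-OE cells, and Mmp9, gelatinase B, at 9.25 and 21.7 against 3.80 and 1.75 FPKM, both called (adjusted p = 0.0293 and 1.06e-06, limma), while Mmp8 and Cxcr2 were not called.

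The balance between the gene groups also differed at 96 h. The sum over the 5 eosinophil genes was 5.34 and 3.67 times that over the 5 basophil and mast cell genes in the WT libraries, and 1.89 and 0.962 times in those of HMGN1-OE cells. Before 96 h the basophil and mast cell sum was the larger in all 8 libraries. It was 32.6 and 161 times the eosinophil sum in WT cells at 0 h and 38.3 and 33.7 times in HMGN1-OE cells. At 36 h it was 44.3 and 103 times in WT cells and 160 and 226 times in HMGN1-OE cells. The genotypes did not overlap in this balance at 36 and 96 h, but overlapped at 0 h.

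**Figure D3:**
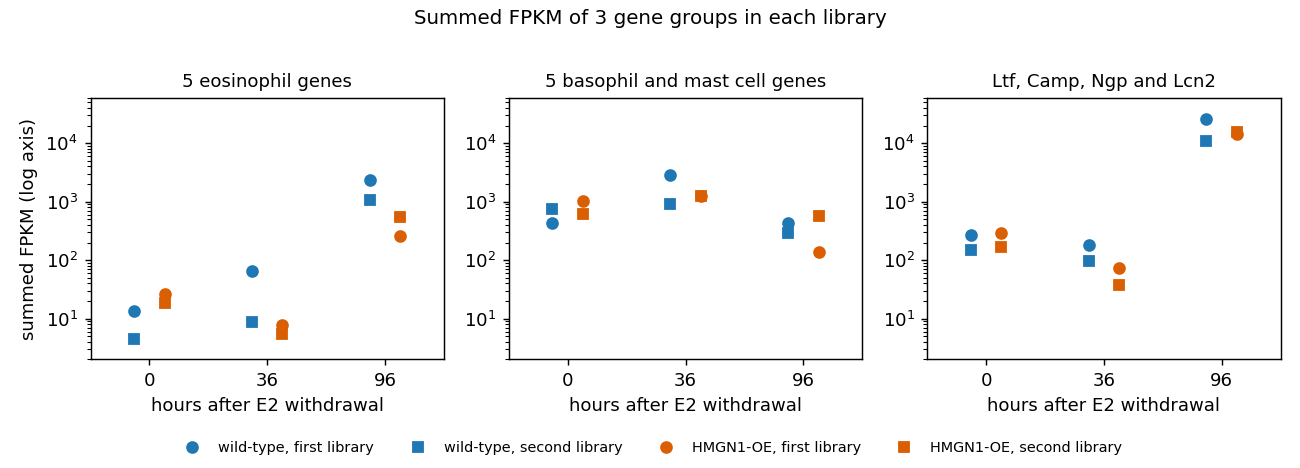
Summed FPKM (log axis) of the 5 eosinophil genes, the 5 basophil and mast cell genes, and Ltf, Camp, Ngp and Lcn2 in each of the 12 libraries, by time; circles and squares are the first and second library, blue is WT and orange is HMGN1-OE. At 96 h the eosinophil sums part by genotype (2313 and 1074 against 256 and 548 FPKM) while the other sums overlap.

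Before withdrawal the order of the genotypes was the other way for Prg2 and Epx. At 0 h both HMGN1-OE libraries were above both WT libraries for each gene, with log2 differences of 1.41 ± 0.54 (SE, adjusted p = 0.382) for Prg2 and 1.52 ± 0.45 (SE, adjusted p = 0.0529) for Epx by limma. Without the second WT library at 0 h the value for Prg2 was 0.60, and without the first it was 2.22. Neither gene was called, and Prg3, Ear1 and Ear2 overlapped between genotypes there. With Mcpt8 and Prss34 this made 4 of the 10 genes with both HMGN1-OE libraries higher at 0 h, as 3.26% of tested genes were, and 3 of the 10 had an unadjusted p under 0.05, as 3.97% did. The test of the difference itself, the change from 0 to 96 h in HMGN1-OE cells minus that in WT cells, gave -3.66 ± 0.64 (SE, adjusted p = 3.14e-06) for Epx and -3.60 ± 0.76 (SE, adjusted p = 0.000527) for Prg2 by limma, where 0.339% of tested genes were called lower, 0.339% higher and 0.677% in either direction. Prg3 gave -2.10 ± 0.61 (SE, adjusted p = 0.0801), Ear1 -1.13 (adjusted p = 0.81) and Ear2 -0.80 (adjusted p = 0.81). The call of Epx was kept when any 1 library was left out, with -2.85 to -4.47, and lost when libraries were centred (-4.19, adjusted p = 0.303). The call of Prg2 was lost when the second WT library at 0 h (-2.79), the first HMGN1-OE library at 0 h (-3.27) or the first HMGN1-OE library at 96 h (-2.93) was left out, and when libraries were centred (-4.14, adjusted p = 0.462).

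At 36 h Prg2 was the 1 gene of the 10 called between genotypes, at -2.09 ± 0.54 (SE, adjusted p = 0.0108, limma), where 0.842% of tested genes were called lower and 1.26% in either direction. At an unadjusted p under 0.05 it was 2 of the 10 genes and 5.15% of tested genes. Both HMGN1-OE libraries were below both WT libraries for Prg2, Epx, Ear1 and Ear2, but so they were for 84.4% of tested genes, and the median of all tested genes was -0.54. Ear1 and Ear2 were then at 0.148 to 0.187 FPKM in HMGN1-OE cells, close to the 0.0967 to 0.105 FPKM of genes without signal. The change from 0 to 36 h differed between genotypes by -3.50 ± 0.76 (SE, adjusted p = 0.00125) for Prg2 and -2.35 ± 0.64 (SE, adjusted p = 0.044) for Epx by limma, where 0.504% of tested genes were called. These calls depended on single libraries. With 1 library left out, that of Prg2 at 36 h was kept in 10 of 12 fits, that of Prg2 over time in 8 of 12, with -2.06 to -4.95, and that of Epx over time in 3 of 12, with -1.90 to -2.81. Without the first WT library at 36 h the Prg2 difference at 36 h was -0.65, that of Prg2 over time -2.06 and that of Epx over time -1.999, and none was called.

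That library stood apart for these genes, though not for these alone. In the WT group at 36 h the first library was higher than the second for 10 of 10 genes, by a median of 1.22 on the log2 scale, whereas 19.5% of all tested genes were higher there and the median gene was at -0.26. The ratio of first to second library was 12.3 for Prg3, 8.82 for Fcer1a, 8.49 for Prg2, 3.86 for Hdc and 3.63 for Cpa3, and 1.03 for Prss34. Of the 14 other basophil or mast cell genes tested, 10 were also higher in it. The largest gaps among them were those of Cd200r3, an activating receptor of basophils and mast cells, at 16.8 and 0.306 FPKM, Il1rl1, the IL-33 receptor, at 27.3 and 1.72 FPKM, and Ms4a2, the beta chain of the high-affinity IgE receptor, at 62.0 and 8.52 FPKM. The rest of the 14 were lower in the first library, with Hpgds at 6.84 and 20.7 FPKM, Fcer1g at 493 and 688 FPKM, Slc18a2 at 38.1 and 48.8 FPKM, and Ltc4s at 0.571 and 0.989 FPKM. Genes outside these fates also differed between the first and second library. Of the monocyte genes, Ctss was at 13.3 and 1.18 FPKM, Ccr2 at 38.3 and 7.32 FPKM, and Csf1r at 3.62 and 0.473 FPKM. Ly86, at 0.403 and 2.19 FPKM, and Klf4, at 0.415 and 0.787 FPKM, were lower in the first. The neutrophil gene Elane was at 2864 and 1109 FPKM, and Car2 went the other way, at 156 and 1309 FPKM. The part of this library's makeup in the 36 h results was not tested beyond leaving it out.

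**Figure D4:**
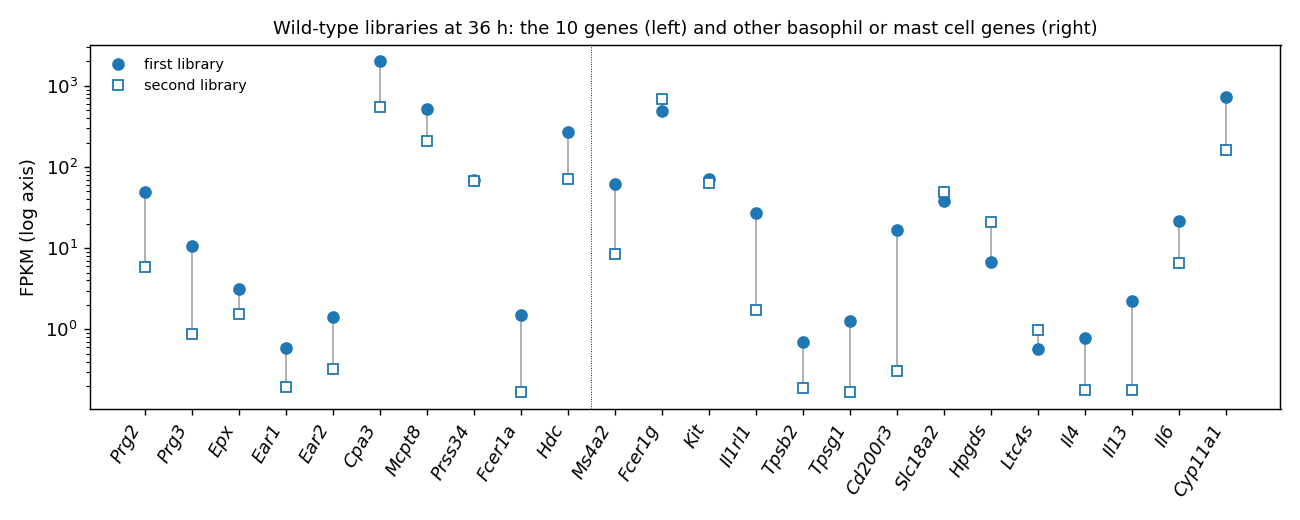
FPKM (log axis) in the first (filled circles) and second (open squares) WT library at 36 h, for the 10 genes left of the dotted line and 14 other basophil or mast cell genes right of it; gray lines join the libraries of a gene. The first library is the higher one for all 10 genes, most for Prg3 (10.7 against 0.871 FPKM), and for 10 of the 14 others.

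By mean FPKM Cpa3, Mcpt8, Prss34 and Hdc were highest at 36 h in both genotypes, and Fcer1a was highest at 96 h. From 0 to 36 h all 5 basophil and mast cell genes had positive log2 differences in each genotype. Their median was 1.51 in WT and 0.52 in HMGN1-OE cells, beside 0.47 and 0.06 over all tested genes. Of these differences only that of Hdc was called. At 0 h Cpa3, Mcpt8, Prss34 and Hdc were already between 14.7 and 539.7 FPKM in every library, above the eosinophil genes in the same library, while Fcer1a was at 0.230 FPKM or less. Cpa3 encodes carboxypeptidase A3, a mast cell granule protease that basophil and mast cell progenitors also express. It was at 255 and 539.7 FPKM at 0 h, 2013 and 554 FPKM at 36 h, and 159 and 155 FPKM at 96 h in WT cells. In HMGN1-OE cells it was at 516 and 345 FPKM, then 564 and 648 FPKM, then 39.1 and 168 FPKM. Its 96 h libraries were the lowest of each genotype, below the 0 h ones as for 80.9% of tested genes in WT and 82.8% in HMGN1-OE cells. By limma it fell from 0 to 96 h by 1.24 ± 0.60 (SE, adjusted p = 0.0481) in WT and by 2.36 ± 0.60 (SE, adjusted p = 0.000345) in HMGN1-OE cells.

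In WT cells the median of all tested genes was at -1.75, below Cpa3 at -1.24, and after libraries were centred on their medians the WT value of Cpa3 turned to 0.61, while the HMGN1-OE value was -1.05, neither called. The WT call of Cpa3 lay close to the threshold and was kept in 2 of the 12 fits with 1 library left out, with values from -0.70 to -1.78. That in HMGN1-OE cells was kept in 11 of 12, and without its first library at 96 h the value was -1.32 and not called. Over the 10 genes, 6 rose and 1 fell from 0 to 96 h in WT cells, and 6 rose and 2 fell in HMGN1-OE cells, where 81.5% and 67.5% of tested genes were called in either direction. With centred libraries 9 rose and 0 fell in WT cells, and 7 rose and 0 fell in HMGN1-OE cells. Of the 11516 tested genes, 4202 were then called higher and 3889 lower in WT cells, and 3560 higher and 3739 lower in HMGN1-OE cells.

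Mcpt8 encodes mouse mast cell protease 8, a serine protease that marks mouse basophils. In WT cells it was at 120.2 and 132 FPKM, then 524 and 207 FPKM, then 170.1 and 71.3 FPKM. In HMGN1-OE cells it was at 210.2 and 174 FPKM, then 411 and 227 FPKM, then 57.2 and 244 FPKM. Its 36 h libraries were the higher ones of each genotype apart from the second 96 h library of HMGN1-OE cells, and it was not called in any of the 9 comparisons. Between genotypes it differed by 0.59 at 0 h, -0.11 at 36 h and 0.10 at 96 h on the log2 scale, each with an SE of 0.59.

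Hdc encodes histidine decarboxylase, the enzyme that makes histamine. Its WT levels were 22.8 and 47.7 FPKM, then 271 and 70.2 FPKM, then 56.5 and 39.4 FPKM. Its HMGN1-OE levels were 27.2 and 16.5 FPKM, then 105 and 115 FPKM, then 17.4 and 57.5 FPKM. Both genotypes were highest at 36 h. It rose from 0 to 36 h by 2.32 ± 0.55 (SE, adjusted p = 0.00212) in HMGN1-OE and by 2.03 ± 0.55 (SE, adjusted p = 0.0402) in WT cells by limma, and the rises did not differ past the test (0.29 ± 0.78, SE, adjusted p = 0.873). Of the 10 genes, 2 were called higher over this interval in WT cells (Hdc and Prg3) and 1 in HMGN1-OE cells (Hdc), where 0.356% and 0.677% of tested genes were. Without the first WT library at 36 h the WT values were 1.06 for Hdc and 0.26 for Prg3, neither called, and over the 12 fits with 1 library left out the WT call was kept in 4 for Hdc and in 3 for Prg3. The HMGN1-OE call of Hdc was kept in 9 of 12.

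**Figure D5:**
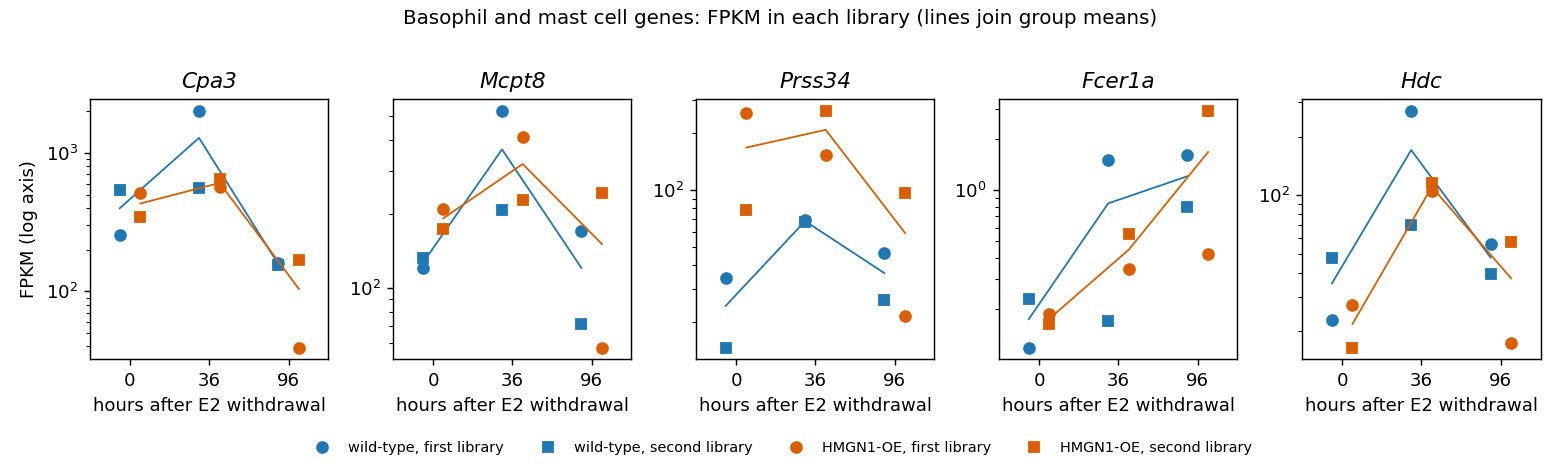
FPKM of Cpa3, Mcpt8, Prss34, Fcer1a and Hdc (log axis) at 0, 36, and 96 h after E2 withdrawal; circles and squares are the first and second library, blue is WT, orange is HMGN1-OE, and lines join group means. Prss34 lies higher in HMGN1-OE cells at 0 h (256 and 78.5 against 34.2 and 14.7 FPKM) and 36 h, and the second HMGN1-OE library at 96 h lies above the first in every panel.

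Prss34, a basophil serine protease also known as mouse mast cell protease 11, was the 1 gene of the 10 called at 0 h, where 0.799% of tested genes were called higher in HMGN1-OE cells and 1.36% in either direction. At 0 h its level in HMGN1-OE cells was 256 and 78.5 FPKM, against 34.2 and 14.7 FPKM in WT cells, a difference of 2.60 ± 0.56 on the log2 scale (SE, adjusted p = 0.000368, limma). At 36 h it was at 154 and 262 FPKM against 69.5 and 67.4 FPKM, a difference of 1.54 ± 0.56 that was not called (SE, adjusted p = 0.259). The HMGN1-OE libraries were above the WT libraries at both times, at 36 h as 1.18% of tested genes were, and overlapped them at 96 h, with 21.6 and 96.9 FPKM against 46.4 and 26.4 FPKM. In HMGN1-OE cells Prss34 fell from 0 to 96 h by 1.60 ± 0.56 (SE, adjusted p = 0.00821), although the libraries of these times overlapped. This value was -0.76 without the first library at 0 h, -0.55 without the first at 96 h and -0.29 with centred libraries, none called. The change differed from that in WT cells by -2.22 ± 0.79 (SE, adjusted p = 0.367). The 0 h difference was 1.76 without the first HMGN1-OE library and 2.02 without the second WT library, and was then not called, nor was it when libraries were centred (2.74, adjusted p = 0.494).

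Fcer1a encodes the alpha chain of the high-affinity IgE receptor, the surface mark shared by basophils and mast cells. It was at 0.118 and 0.230 FPKM at 0 h, 1.501 and 0.170 FPKM at 36 h, and 1.62 and 0.799 FPKM at 96 h in WT cells. In HMGN1-OE cells it was at 0.187 and 0.163 FPKM, then 0.341 and 0.550 FPKM, then 0.420 and 2.93 FPKM. It thus reached 1 FPKM in 3 of 12 libraries and was the lowest of the basophil and mast cell genes in each. Genes without signal were most often listed near 0.0967 to 0.105 FPKM, which is close to its 0 h level. Like Prg3, Ear1 and Ear2 it passed the filter through later times alone, so a difference over time was a condition of its being tested. It rose from 0 to 96 h by 0.89 ± 0.32 (SE, adjusted p = 0.00736) in WT and by 1.01 ± 0.32 (SE, adjusted p = 0.00357) in HMGN1-OE cells by limma. Without the second HMGN1-OE library at 96 h the latter was 0.27, and without the first WT library at 96 h the former was 0.62, neither called.

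Between genotypes at 96 h none of the 5 basophil and mast cell genes was called by limma, 0 had an unadjusted p under 0.05 (2.73% of tested genes did), and all 5 overlapped. In the HMGN1-OE group at 96 h the second library was above the first for 5 of 5 of them, by a median of 2.07 on the log2 scale, and for Prg2, Prg3 and Epx, but not for Ear1 and Ear2. Among all tested genes 9.47% were higher in the first library there. Differences of the basophil and mast cell genes at 96 h ran from -0.94 for Cpa3 to 0.39 for Prss34 with SE of 0.32 to 0.60.

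Further genes of the same fates were read from lists. Of the 5 other eosinophil genes tested, 4 rose from 0 to 96 h in WT and 5 in HMGN1-OE cells, where 4.31% and 5.08% of all tested genes did. Ear3, Ear10 and Alox15 were under 1 FPKM in every 0 h library, which made a difference over time a condition of their being tested. Of the 5, 2 were called lower in HMGN1-OE cells at 96 h, as 0.347% of all tested genes were. Ear6, another eosinophil-associated ribonuclease, was at 184 and 77.1 FPKM in WT and 21.0 and 33.7 FPKM in HMGN1-OE cells at 96 h (log2 difference -2.12, adjusted p = 0.000214, limma). Alox15, the lipoxygenase of eosinophils and macrophages, was at 6.72 and 4.73 FPKM in WT and 1.23 and 2.76 FPKM in HMGN1-OE cells (log2 difference -1.20, adjusted p = 0.0421, limma). Without the first WT library at 96 h these values were -1.50 for Ear6 and -0.98 for Alox15, and without the first HMGN1-OE library they were -1.79 and -0.82, none called. Both lists of eosinophil genes had negative medians between genotypes at 96 h, -1.94 for the 5 described here and -0.83 for the 5 others, beside 0.36 over all tested genes. None of the 14 other basophil or mast cell genes was called between genotypes by limma at any time, with unadjusted p under 0.05 for 1 at 0 h, 1 at 36 h and 2 at 96 h, beside 3.97%, 5.15% and 2.73% of all tested genes. From 0 to 96 h, 7 of them rose in each genotype, among them the tryptase Tpsb2 and Cd200r3, and 3 fell in WT and 2 in HMGN1-OE cells, among them the amine transporter Slc18a2, where 81.5% and 67.5% of all tested genes were called. Of the 7 that rose, 6 were under 1 FPKM in every 0 h library, Tpsb2 and Cd200r3 included, and passed the filter through later times alone.

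Of 9 receptors tested, none was called between genotypes by limma, with unadjusted p under 0.05 for 1 at 0 h and for 0 at the later times. Over all tested genes 1.36%, 1.26% and 0.669% were called at 0, 36 and 96 h, and 3.97%, 5.15% and 2.73% had an unadjusted p under 0.05. From 0 to 36 h 2 of the 9 receptors were called higher in each genotype and 0 lower. Of the 14 other basophil or mast cell genes, 3 were called higher in WT and 4 in HMGN1-OE cells, and 0 lower. Over all tested genes 0.356% and 0.677% were called higher. Ms4a2, on both lists, rose over this interval by 1.87 in WT (adjusted p = 0.0103) and by 1.86 in HMGN1-OE cells (adjusted p = 0.00477, limma), as Hdc did. Without the first WT library at 36 h the WT value of Ms4a2 was 0.51 and not called. Its FPKM in HMGN1-OE cells was 4.38 and 3.69 at 0 h and 15.6 and 18.9 at 36 h. From 0 to 96 h 4 of the 9 receptors were called in each genotype, 2 higher and 2 lower, where 81.5% of all tested genes were called in WT and 67.5% in HMGN1-OE cells. Kit, the receptor that marks progenitors and mast cells, fell in WT cells from 25.0 and 47.6 FPKM at 0 h to 12.3 and 5.23 FPKM at 96 h (log2 change -1.97, adjusted p = 0.000285, limma). In HMGN1-OE cells it was at 13.4 and 12.1 FPKM at 0 h and 9.58 and 8.85 FPKM at 96 h and was not called. With centred libraries the WT change of Kit was -0.12 and not called.

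Of 15 transcription factors tested, none was called between genotypes by limma at 0 or 96 h, and 0 had an unadjusted p under 0.05. At these times 1.36% and 0.669% of all tested genes were called, and 3.97% and 2.73% had an unadjusted p under 0.05. At 36 h 1 of the 15 was called, Irf8, which monocytes need, beside 1.26% of all tested genes. Irf8 was lower in HMGN1-OE cells (-1.49, adjusted p = 0.0412, limma, and -0.91 with centred libraries, not called). From 0 to 96 h 2 were called higher and 8 lower in WT cells, and 2 higher and 6 lower in HMGN1-OE cells, where 77.2% and 62.4% of all tested genes were called lower and 4.31% and 5.08% higher. Gata2, which basophil and mast cell fates need, was at 23.3 and 23.3 FPKM at 0 h, 68.4 and 53.1 FPKM at 36 h, and 12.4 and 5.35 FPKM at 96 h in WT cells. In HMGN1-OE cells it was at 67.6 and 25.9 FPKM, then 32.3 and 53.0 FPKM, then 2.08 and 7.36 FPKM. It fell from 0 to 96 h in both, by 1.40 in WT and by 3.08 in HMGN1-OE cells, and these changes did not differ past the test (-1.69, adjusted p = 0.81, limma). With centred libraries the WT change of Gata2 turned to 0.45, not called, and that in HMGN1-OE cells was -1.77. Gata1, the factor of eosinophils as well as red cells, was at most 4.18 FPKM, in the first WT library at 36 h, and at 96 h it was at 2.74 and 0.793 FPKM in WT and 0.410 and 0.961 FPKM in HMGN1-OE cells, which overlapped. Cebpe, needed late in neutrophils and eosinophils, rose by 2.07 from 0 to 96 h in HMGN1-OE cells (adjusted p = 0.00064, limma) and was at 0.93 in WT cells without a call (adjusted p = 0.107), and these changes did not differ past the test (1.14, adjusted p = 0.81). Cebpa, the earlier factor, fell by 3.28 in WT and by 2.06 in HMGN1-OE cells, with the same directions when libraries were centred.

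The neutrophil list moved beside these genes at 96 h. All 15 neutrophil genes tested were called from 0 to 96 h in WT cells, 9 of them higher, and 14 in HMGN1-OE cells, 11 of them higher, where 81.5% and 67.5% of all tested genes were called and 4.31% and 5.08% were called higher. Between genotypes at 96 h 6 of the 15 were called, 4 higher in HMGN1-OE cells (S100a9, Elane, Ctsg and Mpo) and 2 lower (Mmp9 and Retnlg), and 9 had an unadjusted p under 0.05, beside 0.669% of all tested genes called, 0.321% higher and 0.347% lower, and 2.73% by unadjusted p. Without the second WT library at 96 h the differences of Elane, Ctsg and Mpo were 1.24, 1.32 and 0.88, none called, and with centred libraries none of the 6 was called. Their summed level at 96 h ran from 67088 to 96911 FPKM in WT and from 121712 to 175102 FPKM in HMGN1-OE cells. S100a9 was listed at 0.05 FPKM in the first WT library at 96 h and 26546 FPKM in the second, and whether the first is a failed estimate is not known. Its calls rest on that value, since without that library the change from 0 to 96 h in WT cells turned from -1.998 to 5.31, and the genotype difference at 96 h moved from 8.53 to 1.22, not called. Without S100a9, a step chosen after seeing the data, the sums were 96911 and 40542 FPKM in WT and 69838 and 101641 FPKM in HMGN1-OE cells, and overlapped. Elane, the neutrophil elastase of immature cells, was at 409 and 867 FPKM at 0 h and 129 and 21.7 FPKM at 96 h in WT cells, and at 106 and 74.0 FPKM and then 168 and 554 FPKM in HMGN1-OE cells. It fell in WT and rose in HMGN1-OE cells, and the difference in change was 5.23 (adjusted p = 3.77e-07, limma), opposite in sign to Epx and Prg2, with 4.70 and no call when libraries were centred. The part of neutrophil RNA in the eosinophil differences was not tested beyond the ratio to secondary granule genes given above. Of 8 monocyte genes tested 0 were called between genotypes by limma at 96 h (1 at an unadjusted p under 0.05), of 7 red cell and megakaryocyte genes 0 (2 at an unadjusted p under 0.05), and of 2 lymphoid or dendritic genes 0 (0 at an unadjusted p under 0.05).

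Likeness between genes was read as the root mean square difference of log2(FPKM + 1) over the 12 libraries after each gene's mean was subtracted, for the 9 genes that ranged over at least 2. Among the 10 genes Ear1 and Ear2 were close, at 0.39, and Epx and Ear1 at 0.69. Outside them, Prg2 was most like Ear6 (0.87) and Ear7 (0.97), and Ear2 was most like Ear10 (0.22) and C5ar1 (0.32). Ear1 was most like 6430548M08Rik (0.22) and Bst1 (0.26). Epx was most like Asprv1 (0.66) and Ifitm6 (0.67), and Prg3 was most like Bcl2a1b (0.65) and Adam8 (0.66). Hdc was most like Cyp11a1 (0.45) and Ms4a2 (0.51), which both stand on the basophil and mast cell list. Cpa3 was most like Aqp9 (0.49) and F2r (0.52), Mcpt8 like Hoxb8 (0.46) and Mboat1 (0.48), and Prss34 like Zfp783 (0.64) and Tdrkh (0.65). Of all these nearest genes outside the 10, only Ear6, Ear10, Cyp11a1 and Ms4a2 stand on the gene lists. Hoxb8 is also the gene carried by the immortalizing retrovirus.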

How the data were processed

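The deposited values are FPKM, 1 per gene and library. In the study's methods ERCC RNAs were added to RNA of equal cell numbers, TruSeq libraries (polyA RNA per the labels) were sequenced, reads were aligned with Bowtie, and the authors fitted a loess to the ERCC RNAs to normalize RPKM, whereas the submitters' processing notes name HISAT, Cufflinks 2.0.0 and mm9. Which of these made the table is not given in the sources used here. Over 30 ERCC RNAs above 1 FPKM the mean log2 deviation of a library was -0.02 to 0.01. Depth is unknown: 21.1 to 22.4% of low values lay near whole steps, close to what random values give, so no counting error is given and the number of libraries limits the precision. The scaling is per cell, and an error of the loess in a library could move its genes by amounts that differ with their level.

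Groups came from genotype and time in the column names. Column digits are not the replicate numbers of the labels, so nothing was paired, and 0 columns were left out. log2(FPKM + 1) of the 11516 genes that reached 1 FPKM in 2 or more libraries was fitted with limma 3.58.1 (lmFit, eBayes with trend, R 4.3.3), 1 mean per group over 12 libraries, two-sided, Benjamini-Hochberg over genes, in 9 comparisons. The prior degrees of freedom were infinite against 6 residual ones. The fit was tested on simulated data. Python 3.11.15, pandas 2.3.3 and matplotlib 3.10.9 served for the rest. Alternatives were 2 other scalings, 2 pseudocounts, 2 filters, 3 variance models, a fit of the compared libraries alone, and each library left out. The 10 genes and the lists of other genes were chosen with earlier results of these data known. Beside the 10, whose values are all given, from lists of eosinophil, basophil and mast cell, receptor, transcription factor, neutrophil, monocyte, red cell and lymphoid genes, with 103 of 108 genes found in the table, members included, the rule named at most 4 called genes per comparison with the largest change, plus Gata1, Gata2, Cebpa, Cebpe, Kit, Il5ra, Ms4a2 and Elane. Chromosomes and transcripts are from GENCODE vM21 and promoters from RefSeq GRCm38.p6, matched by symbol.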

Additional observations from a re-analysis of the deposited data

Results flagged for a closer look

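For these genes a test of the difference itself found that the change over time was not the same in HMGN1-OE as in WT cells, given as the change in HMGN1-OE minus that in WT cells on the log2(FPKM + 1) scale with limma's adjusted p. From 0 to 96 h the difference was -3.66 for Epx (adjusted p = 3.14e-06), -3.60 for Prg2 (adjusted p = 0.000527), -2.72 for Ear6 (adjusted p = 0.00158) and 5.23 for Elane (adjusted p = 3.77e-07). The eosinophil genes Epx, Prg2 and Ear6 rose in both genotypes and rose less in HMGN1-OE cells, while Elane fell in WT and rose in HMGN1-OE cells. With libraries centred on their medians none of these 4 calls was kept. With 1 library left out the call was kept in 12 of 12 fits for Epx and for Elane, in 9 of 12 for Prg2 and in 10 of 12 for Ear6, with -2.10 to -3.34. From 0 to 36 h the difference was -3.50 for Prg2 (adjusted p = 0.00125) and -2.35 for Epx (adjusted p = 0.044). With 1 library left out the 0 to 36 h call was kept in 8 of 12 fits for Prg2, with -2.06 to -4.95, and in 3 of 12 for Epx, with -1.90 to -2.81.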

How the results depend on the processing

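The rises of Prg2, Prg3, Ear1 and Ear2 from 0 to 96 h were called in both genotypes under all 22 alternatives, and so was that of Epx in WT cells. In HMGN1-OE cells the rise of Epx was called in 21 of 22, and missed with no filter (1.85, adjusted p = 0.0532, limma). The numbers of the 10 genes called elsewhere moved with the settings, and the cause was not tested. With each library centred on its median 0 genes were called in HMGN1-OE against WT cells at 0, 36 and 96 h, from 0 to 36 h in either genotype, and in either test of genotype by time; with quantile normalization the counts were the same except 1 gene, Epx, at 96 h. Cpa3 from 0 to 96 h in WT cells turned to 0.61 and 0.79 under these scalings. With no filter or without moderation the count was 0 in the same comparisons, and from 0 to 96 h in HMGN1-OE cells it was 4 and 5 in place of 8. Without the trend it was 0 at 36 h, 0 at 96 h, 0 from 0 to 36 h in WT, 1 in HMGN1-OE cells, and 0 and 1 in the tests of genotype by time to 36 and 96 h. With the compared libraries alone it was 0 at 36 h, 0 at 96 h, 0 from 0 to 36 h in WT, 5 in HMGN1-OE cells, and 1 in genotype by time to 96 h. With either smaller pseudocount it was 2 at 0 h and 1 from 0 to 36 h in WT cells. With a mean of at least 5 FPKM, and with the robust option, it was 0 from 0 to 36 h in WT cells and 1 in genotype by time to 36 h. With 1 library left out the counts ran from 0 to 2 at 0 h, 0 to 2 at 36 h, 0 to 4 at 96 h, 0 to 3 from 0 to 36 h in each genotype, 6 to 7 and 6 to 8 from 0 to 96 h in WT and HMGN1-OE cells, and 0 to 2 and 1 to 4 in genotype by time to 36 and 96 h. Over all tested genes the numbers called at 0, 36 and 96 h between genotypes were 157, 145 and 77, against 12, 6 and 7 with centring, 18, 7 and 26 with quantile normalization, 30, 28 and 7 without the trend, 71, 59 and 31 with the robust option, 6, 15 and 15 with no filter, and 3, 2 and 2 without moderation. A group left with 1 library was assumed to vary like the others. Of 900 values of single genes, 707 kept direction and side of the threshold, 177 lost the call, 14 gained it and 2 reversed. No paired analysis was possible because the digits in the column names are not the replicate numbers of the labels, and the fit with the replicate block was not run. The 2 libraries a group and an unknown depth limit every difference between genotypes.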
